A study of Mus musculus with 20 samples.

Results

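The genes described here belong to the bone morphogenetic protein (BMP) pathway of the ovarian follicle: the ligands Bmp2, Bmp4, Bmp6 and Bmp7, the receptors Bmpr1a, Bmpr1b and Bmpr2, the secreted antagonist Grem1, and the target genes Id1 and Id3. They were taken by symbol from the deposited table of estimated counts, which held all 10 of them among 39253 genes, under the gene identifiers 12156 (Bmp2), 12159 (Bmp4), 12161 (Bmp6), 12162 (Bmp7), 12166 (Bmpr1a), 12167 (Bmpr1b), 12168 (Bmpr2), 23892 (Grem1), 15901 (Id1) and 15903 (Id3). All 10 also passed a filter on low counts that kept 17810 genes, and their values over 20 mice are given below.

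Antral follicles came from female CD-1 mice, an outbred stock. Iodoacetic acid, a by-product of water disinfection, was given in the drinking water at 10 mg/L (5 mice) or 500 mg/L (5 mice), and 10 control mice drank water alone. Exposure began at 40 days of age and lasted 35 days, so the mice were 75 days old, and they were sampled in diestrus. Each library held 30 to 40 follicles of 220 to 400 µm from 1 mouse, with their granulosa cells, theca cells and oocytes sequenced together. The 2 doses were run in separate experiments a month apart. Experiment 1 held the 500 mg/L mice with control replicates 6 to 10, and experiment 2 held the 10 mg/L mice with control replicates 1 to 5, so a comparison between the doses also spans the experiments, and dose and experiment cannot be told apart there.

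BMP ligands are secreted dimers that bring together type I receptors, such as those encoded by Bmpr1a and Bmpr1b, and a type II receptor such as that encoded by Bmpr2. The type II receptor phosphorylates the type I receptor, which phosphorylates SMAD1, SMAD5 and SMAD9, and these enter the nucleus with SMAD4 and switch on genes such as Id1 and Id3. Antagonists such as gremlin 1 bind the ligands outside the cell. In the ovary the pathway carries signals between theca cells, granulosa cells and the oocyte, and BMPs are known to modulate the response of granulosa cells to follicle-stimulating hormone.

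Promoter sequences of Bmpr2, Grem1 and Id3 are shown because these 3 genes had the smallest unadjusted p between the doses. Each is the 250 bases before the start of the gene, read 5′ to 3′ on the gene's strand, from RefSeq on build GRCm38.p6, which is not the build named in the submitters' processing notes. Capitals mark GGCGCC, a GC-rich element of the kind that SMAD1 and SMAD5 are known to bind.
Bmpr2, chr1:59764029-59764278, + strand: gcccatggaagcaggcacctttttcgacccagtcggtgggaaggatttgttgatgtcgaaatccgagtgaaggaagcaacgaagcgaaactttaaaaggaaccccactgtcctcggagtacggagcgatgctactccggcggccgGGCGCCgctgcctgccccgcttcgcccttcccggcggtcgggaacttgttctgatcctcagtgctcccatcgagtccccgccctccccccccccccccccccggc
Grem1, chr2:113758649-113758898, - strand: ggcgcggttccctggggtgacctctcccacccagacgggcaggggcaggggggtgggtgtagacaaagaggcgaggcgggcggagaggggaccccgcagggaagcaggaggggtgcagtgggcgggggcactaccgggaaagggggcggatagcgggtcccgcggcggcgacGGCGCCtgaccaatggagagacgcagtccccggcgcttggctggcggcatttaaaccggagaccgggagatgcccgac
Id3, chr4:136143572-136143821, + strand: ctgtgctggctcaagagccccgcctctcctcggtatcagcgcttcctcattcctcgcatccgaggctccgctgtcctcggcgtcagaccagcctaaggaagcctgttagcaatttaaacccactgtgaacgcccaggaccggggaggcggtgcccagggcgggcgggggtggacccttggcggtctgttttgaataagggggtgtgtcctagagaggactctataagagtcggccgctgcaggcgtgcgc

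GGCGCC occurred once in the Bmpr2 window, beginning 105 bases before the start, once in the Grem1 window, beginning 78 bases before it, and not in the Id3 window. The element reads the same on both strands and was found in 9.59% of 32851 promoters of the same length. It holds only G and C, and the windows were richer in these than the median promoter, with 64.0% in Bmpr2, 72.0% in Grem1 and 62.8% in Id3, against 52.4%. Of the 9178 promoters with at least 60% G and C, 26.1% held it. GTCT, the short SMAD element, counted on both strands as GTCT or AGAC, occurred 4 times before Grem1, 2 times before Id3 and not before Bmpr2, and 82.9% of all promoters held it. GGGCGG, the GC box, counted with CCGCCC, occurred 3 times before Grem1, 2 times before Id3 and 1 time before Bmpr2, and was in 32.7% of promoters. Its letters can overlap those of GGCGCC, but 0 such overlaps occurred in the 3 windows. RefSeq entries were found for 7 of the 10 genes. Among the other 4 of these, Bmpr1a held GGCGCC 198 bases before its start and Bmp4, Bmp6 and Bmpr1b held none. These are matches of letters in a window and not sites shown to be bound.

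Sequencing depth per mouse was 39.9 to 51.5 M estimated counts at 10 mg/L, 43.1 to 67.5 M at 500 mg/L and 41.7 to 51.0 M in the controls (M for mega). Values are in CPM, read counts relative to the TMM-scaled library total, with the SD over mice. The 8 granulosa markers summed to 6350 to 13553 CPM and the 8 oocyte markers to 264 to 573 CPM over the 20 mice, so markers of granulosa cells and of the oocyte were present in every library. In whole follicles, more cells of a type and more RNA per cell of that type cannot be told apart. Changes are log2 ratios from edgeR's quasi-likelihood test with their standard error (SE), and a gene was called at an adjusted p under 0.05.

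Of the 10 genes, 0 were called at 10 mg/L against all controls, where edgeR called 1 of 17810 genes, or 0.00561%. None (0 of 10) was called at 500 mg/L against all controls or at 500 mg/L against 10 mg/L, where the background was 0.0112% in both. With the controls of the same experiment 0 genes of any kind were called at 10 mg/L or at 500 mg/L, a background of 0% in both. At an unadjusted p under 0.05 the members counted 2 of 10 at 10 mg/L (background 6.22%), 1 of 10 at 500 mg/L (background 8.69%) and 2 of 10 between the doses (background 10.0%). In the comparisons with own controls the count was 0 of 10 at 10 mg/L (background 6.45%) and 0 of 10 at 500 mg/L (background 5.19%). DESeq2 and limma-voom also called 0 of the 10 in each comparison of the 3 groups. The median log2 change of the 10 genes was -0.039 at 10 mg/L and 0.092 at 500 mg/L, beside a median over all tested genes within 0.01 of 0 in both. The values that follow are therefore a description of each gene with its error, and no change in them passed over all genes. Mice above or below every control are counted below for single genes, and how common such counts are among all tested genes was not examined.

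**Figure D1:**
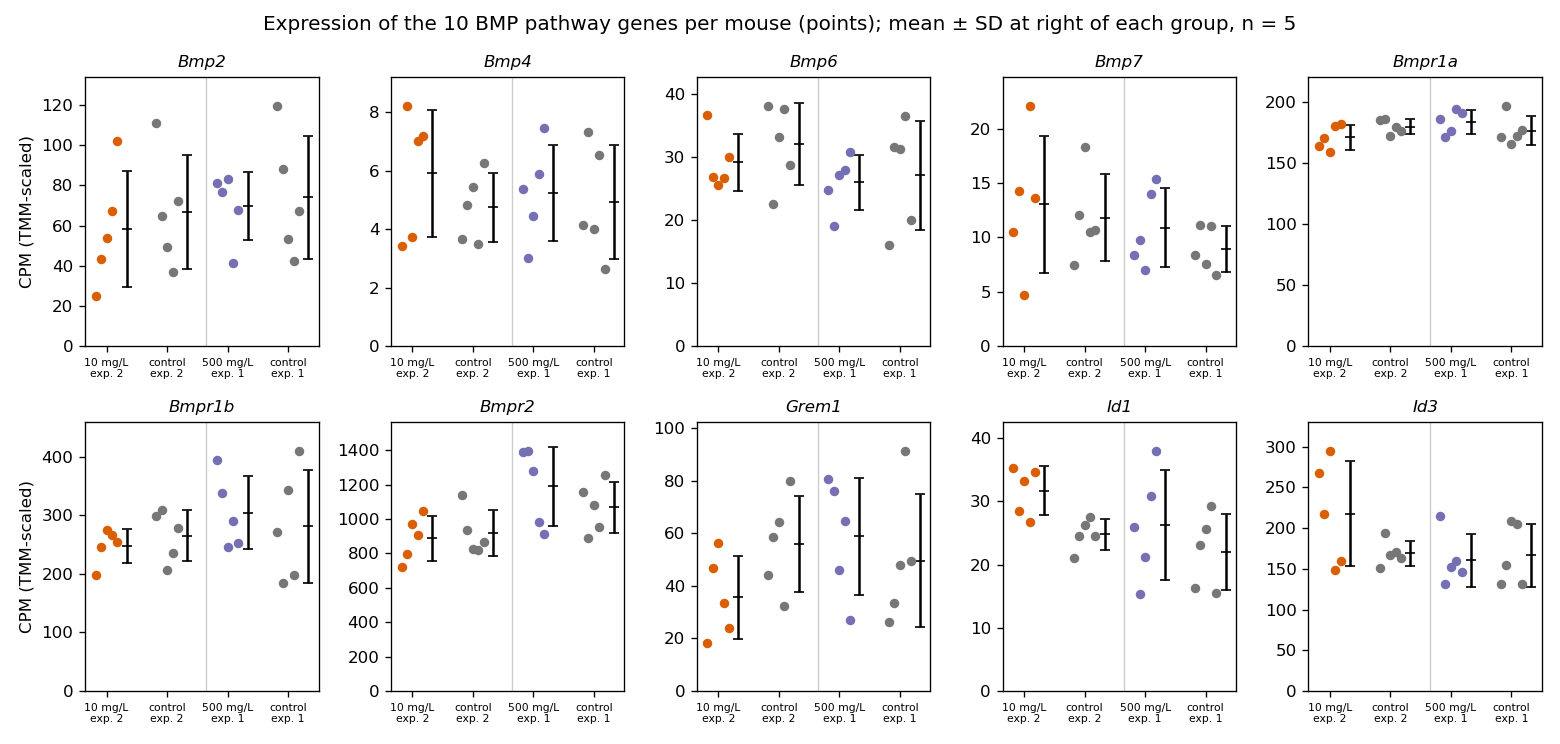
CPM of each gene (y axis, from 0) in the 20 mice, with 10 mg/L beside the controls of experiment 2 and 500 mg/L beside the controls of experiment 1; points are mice and bars are mean ± SD of 5 mice. All groups overlap for every gene, and Id1 and Id3 at 10 mg/L and Bmpr2 at 500 mg/L each have 3 mice above the highest of the 10 controls. The share of all tested genes with as many such mice was not examined.

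The levels per length ordered the genes from Id3 down to Bmp4. To compare genes, CPM was divided by the length of the longest coding transcript in kb. Id3, an inhibitor of differentiation that binds and blocks basic helix-loop-helix factors, was at 139.6 ± 35.0 CPM per kb (SD over 20 mice). Bmpr2 was at 78.8 ± 15.2, Bmpr1b at 51.4 ± 11.5 and Bmpr1a at 29.9 ± 1.71 CPM per kb. Id1, which encodes a related inhibitor, was at 22.6 ± 5.52 and Bmp2 at 18.9 ± 7.11 CPM per kb. Grem1 followed at 12.1 ± 5.08, Bmp6 at 7.97 ± 1.73, Bmp7 at 3.04 ± 1.15 and Bmp4 at 2.52 ± 0.82 CPM per kb. The type II receptor and both type I receptors were by their means above all 4 ligands. The ranges of mean ± SD overlapped for the neighbours Id1 and Bmp2, Bmp2 and Grem1, Grem1 and Bmp6, and Bmp7 and Bmp4. Divided by coding length, Grem1 moved to rank 5, followed by Bmp2 at rank 6 and Id1 at rank 7, and the other 7 genes kept their ranks.

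**Figure D2:**
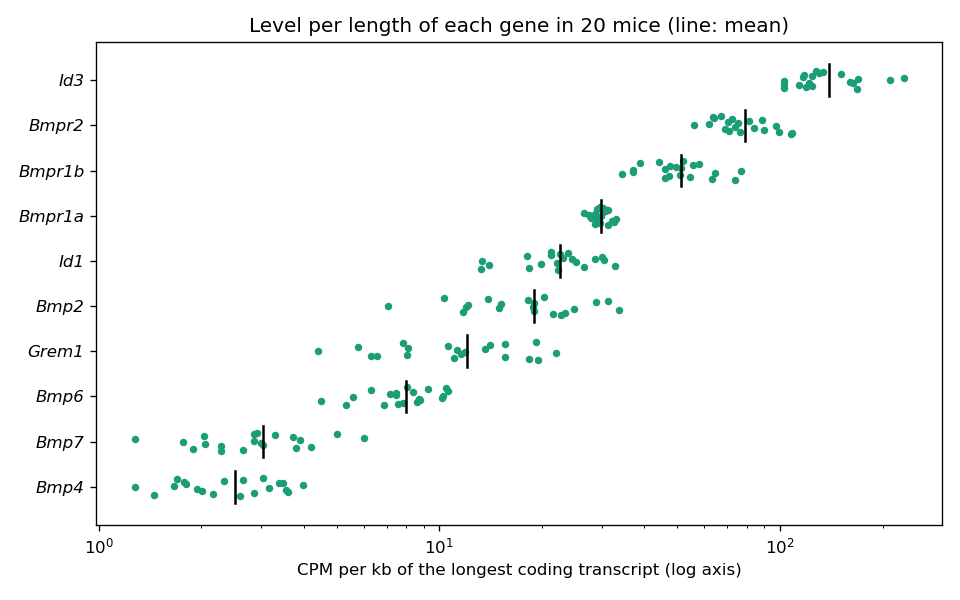
Level of each gene per length in the 20 mice, in CPM per kb of the longest coding transcript (x axis, logarithmic); points are mice of all groups and lines are means. The means of Id3 and the 3 receptors lie to the right of those of the 4 ligands, and Bmpr1a has the narrowest spread.

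Among the ligands, Bmp2, which is made by granulosa cells and acts through both type I receptors, was at 25.1, 43.1, 53.9, 67.3 and 102 CPM in the 10 mg/L mice. The controls of the same experiment had 111, 64.8, 49.5, 36.8 and 72.2 CPM. The groups overlapped over most of their range, and the log2 change was -0.27 against all controls (SE 0.30). Single mice moved it, to -0.58 without 10 mg/L replicate 5 and to -0.079 without replicate 1. Bmp2 at 500 mg/L averaged 70.0 ± 16.9 CPM (SD, n = 5), against 70.5 ± 28.0 CPM in all controls (SD, n = 10), and the log2 ratio was -0.011 (SE 0.30).

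Bmp4 and Bmp7 are known as products of the theca layer. Bmp4, the lowest of the 10 per length, was at 3.42 to 8.21 CPM with a median of 7.00 at 10 mg/L, 3.00 to 7.44 CPM with a median of 5.37 at 500 mg/L, and 2.63 to 7.33 CPM with a median of 4.49 in all controls. Its log2 change was 0.29 (SE 0.25) at 10 mg/L and 0.11 (SE 0.25) at 500 mg/L. Bmp7 spanned 4.70 to 22.1 CPM at 10 mg/L, 6.96 to 15.4 CPM at 500 mg/L, and 6.49 to 18.3 CPM in all controls. Both the lowest and the highest of all 20 Bmp7 values were in 10 mg/L mice, replicates 3 and 4. The log2 change was 0.33 (SE 0.28) at 10 mg/L against all controls and 0.14 (SE 0.32) against the controls of experiment 2. Against all controls it was 0.060 without replicate 4 and 0.55 without replicate 3 (edgeR unadjusted p = 0.0363), the 1 of 20 such fits with an unadjusted p under 0.05. The 500 mg/L mice had a change of 0.071 (SE 0.28) against all controls and 0.29 (SE 0.32) against those of experiment 1.

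Bmp6, which is made by the oocyte and by granulosa cells, was at 36.7, 26.9, 25.7, 26.7 and 30.1 CPM in the 10 mg/L mice and at 24.8, 19.1, 27.3, 28.0 and 30.9 CPM in the 500 mg/L mice. All controls ran from 16.1 to 38.2 CPM with a median of 31.5. All 5 of the 500 mg/L mice were below that median and none was below the lowest control, and the log2 change was -0.19 (SE 0.17; edgeR unadjusted p = 0.295, adjusted p = 0.81). The change at 10 mg/L was -0.019 (SE 0.17). Against the controls of the same experiment it was -0.060 (SE 0.20) at 500 mg/L and -0.14 (SE 0.20) at 10 mg/L. Between the unexposed controls, experiment 2 minus experiment 1, Bmp6 differed by 0.24 (SE 0.20).

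Of the receptors, Bmpr2 differed most between the groups. Its CPM were 1390.3, 1395, 1278, 982 and 911 in the 500 mg/L mice, against 1158, 889, 1079, 952 and 1254 in the controls of experiment 1. In experiment 2 it had 722, 796, 972, 905 and 1046 CPM at 10 mg/L, against 1139, 935, 827, 821 and 864 in the controls. The first 3 of the 500 mg/L mice were above every control of either experiment, and the other 2 lay within the controls.

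Bmpr2 averaged 1191 ± 230 CPM at 500 mg/L (SD, n = 5) and 992 ± 154 CPM in all controls (SD, n = 10), which edgeR fitted as a log2 change of 0.26 (SE 0.12; unadjusted p = 0.0433, adjusted p = 0.56). The controls of experiment 1 had a mean of 1067 ± 149 CPM (SD, n = 5), and the change from them was 0.16 (SE 0.14; unadjusted p = 0.261). Leaving out 1 mouse at a time gave an unadjusted p under 0.05 in 10 of 20 fits, with p = 0.143 without 500 mg/L replicate 1. Mice at 10 mg/L had a mean of 888 ± 131 CPM (SD, n = 5), and the log2 difference of 500 mg/L minus 10 mg/L was 0.42 (SE 0.14; unadjusted p = 0.0077 by edgeR, adjusted p = 0.312). That difference also spans the experiments. Against the controls of experiment 2 the change at 10 mg/L was -0.046 (SE 0.14; edgeR unadjusted p = 0.741). With each dose set against its own controls, the difference between the 2 effects was 0.21 (SE 0.19; edgeR unadjusted p = 0.304). Of the unexposed mice, the controls of experiment 2 averaged 917 ± 132 CPM and those of experiment 1 1067 ± 149 CPM (SD, n = 5 each), a difference of -0.22 (SE 0.14; unadjusted p = 0.13 by edgeR). The members counted 0 of 10 at an adjusted p under 0.05 in that comparison of controls, where the background was 0.157%, and 0 of 10 at an unadjusted p under 0.05, where it was 9.78%.

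The authors' deposited table, whose model is not given in the sources used here, called Bmpr2 alone among the 10 genes. In that table its fold change was 1.17 at 500 mg/L against controls with an adjusted p of 0.0497, and 1.29 at 500 mg/L against 10 mg/L with an adjusted p of 0.0184. Over the 3 groups its adjusted p in the authors' deposited table was 0.0198. The authors' deposited table called 1.26% of its 18169 genes at 500 mg/L, 1.59% between the doses and 2.19% over the 3 groups.

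Bmpr1b and Bmpr1a encode the type I receptors. Bmpr1b ran from 199 to 275 CPM with a median of 254 at 10 mg/L, from 245 to 394 CPM with a median of 291 at 500 mg/L, and from 184 to 409.8 CPM with a median of 275 in all controls. All 5 mice at 10 mg/L were below the control median, the highest of them only just, and the log2 change was -0.14 (SE 0.16). It was 0.15 (SE 0.16) at 500 mg/L. Bmpr1a varied less between mice than the other 9, from 159 to 182 CPM at 10 mg/L, 171 to 194 CPM at 500 mg/L and 166 to 197 CPM in all controls. Its within-group SD was 0.079 on the log2 scale, at percentile 3.08 of all tested genes, whose median was 0.25. Its log2 change was -0.060 (SE 0.049; interval of 2 SE from -0.16 to 0.037) at 10 mg/L and 0.045 (SE 0.048; interval from -0.052 to 0.14) at 500 mg/L.

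Grem1, the antagonist, had the largest log2 change of the 10 genes at 10 mg/L in absolute size. Its CPM were 18.2, 46.6, 56.3, 33.5 and 23.9 in the 10 mg/L mice, against 44.0, 58.5, 64.4, 32.5 and 79.8 in the controls of experiment 2. The 500 mg/L mice had 80.5, 76.2, 45.8, 64.5 and 27.2 CPM, against 26.1, 33.3, 47.9, 91.3 and 49.4 in the controls of experiment 1. In 2 of the 5 mice at 10 mg/L Grem1 was below every control, and the groups otherwise overlapped.

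The mean of Grem1 was 35.7 ± 15.8 CPM at 10 mg/L (SD, n = 5), against 52.7 ± 21.1 CPM in all controls (SD, n = 10), which gave -0.56 on the log2 scale (SE 0.32; unadjusted p = 0.0916 by edgeR, adjusted p = 0.821). With the controls of experiment 2 the change was -0.65 (SE 0.37; edgeR unadjusted p = 0.0934). The change at 500 mg/L was 0.16 (SE 0.31) against all controls and 0.25 (SE 0.36) against those of experiment 1. The difference between the 2 effects, each with its own controls, was 0.89 (SE 0.52; edgeR unadjusted p = 0.0993, adjusted p = 0.934). In that test of the difference 0 of the 10 genes were called and 0 had an unadjusted p under 0.05, with backgrounds of 0% and 5.41%. Grem1 also had the widest spread of the 10, a within-group SD of 0.63 on the log2 scale at percentile 87.4.

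The target genes Id1 and Id3 were the 2 members with an unadjusted p under 0.05 at 10 mg/L. Id1 had 35.2, 28.5, 33.3, 26.8 and 34.7 CPM in the 10 mg/L mice, against 21.0, 24.6, 26.3, 27.6 and 24.6 in the controls of experiment 2. The 500 mg/L mice had 25.9, 15.4, 21.3, 30.8 and 38.0 CPM, against 16.3, 23.1, 25.7, 29.3 and 15.5 in the controls of experiment 1. All 5 mice at 10 mg/L were above the median of all controls and 3 were above every control.

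Id1 averaged 31.7 ± 3.84 CPM at 10 mg/L (SD, n = 5) and 23.4 ± 4.57 CPM in all controls (SD, n = 10). The difference was 0.44 on the log2 scale (SE 0.17; unadjusted p = 0.0175 by edgeR, adjusted p = 0.751), and the unadjusted p was under 0.05 in all 20 fits that left out 1 mouse. With the controls of experiment 2 the change was 0.35 (SE 0.20; edgeR unadjusted p = 0.0935). For 500 mg/L the change was 0.17 (SE 0.17) against all controls, and without 500 mg/L replicate 5 it was -0.0058. That mouse also had the highest summed level of the 8 immediate early genes of all 20, 4919 CPM. The 10 mg/L replicates 2, 4 and 5 had 1308, 1339 and 2351 CPM of these genes, and the other 16 mice had 222 to 766 CPM, so 10 mg/L replicates 1 and 3, with Id1 of 35.2 and 33.3 CPM, were among the low ones. Over the 20 mice, deviations of Id1 and of the immediate early genes from their group means had r = 0.37 and rho = 0.20 (permutation p = 0.289, adjusted p = 0.545), and r was 0.0019 without the 2 mice farthest from the median of those genes. Their part in the Id1 value at either dose was not tested.

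Id3 had 268, 217, 295, 149 and 159 CPM in the 10 mg/L mice, against 151, 193, 167, 171 and 163 in the controls of experiment 2. Mice at 500 mg/L had 215, 131, 152, 159 and 146 CPM, against 132, 155, 209, 205 and 132 in the controls of experiment 1. At 10 mg/L replicates 1 to 3 were above every control of either experiment, and replicates 4 and 5 lay within the range of all controls.

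Id3 averaged 218 ± 64.4 CPM at 10 mg/L (SD, n = 5) and 168 ± 27.5 CPM in all controls (SD, n = 10), which edgeR fitted as 0.38 on the log2 scale (SE 0.15; unadjusted p = 0.0241, adjusted p = 0.758). The unadjusted p was under 0.05 in 18 of the 20 fits that left out 1 mouse, and without 10 mg/L replicate 3 the change was 0.25 (unadjusted p = 0.13 by edgeR). With the controls of experiment 2 it was 0.36 (SE 0.19; edgeR unadjusted p = 0.0635). In the 500 mg/L mice it was -0.062 (SE 0.16), and the log2 difference of 500 mg/L minus 10 mg/L was -0.44 (SE 0.18; edgeR unadjusted p = 0.0248, adjusted p = 0.427). With each dose set against its own controls, the difference between the 2 effects was -0.42 (SE 0.26; edgeR unadjusted p = 0.128). In the authors' deposited table the fold changes at 10 mg/L were 1.35 for Id1 (adjusted p 0.111) and 1.28 for Id3 (adjusted p 0.11), and 0.611% of its genes were called.

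**Figure D3:**
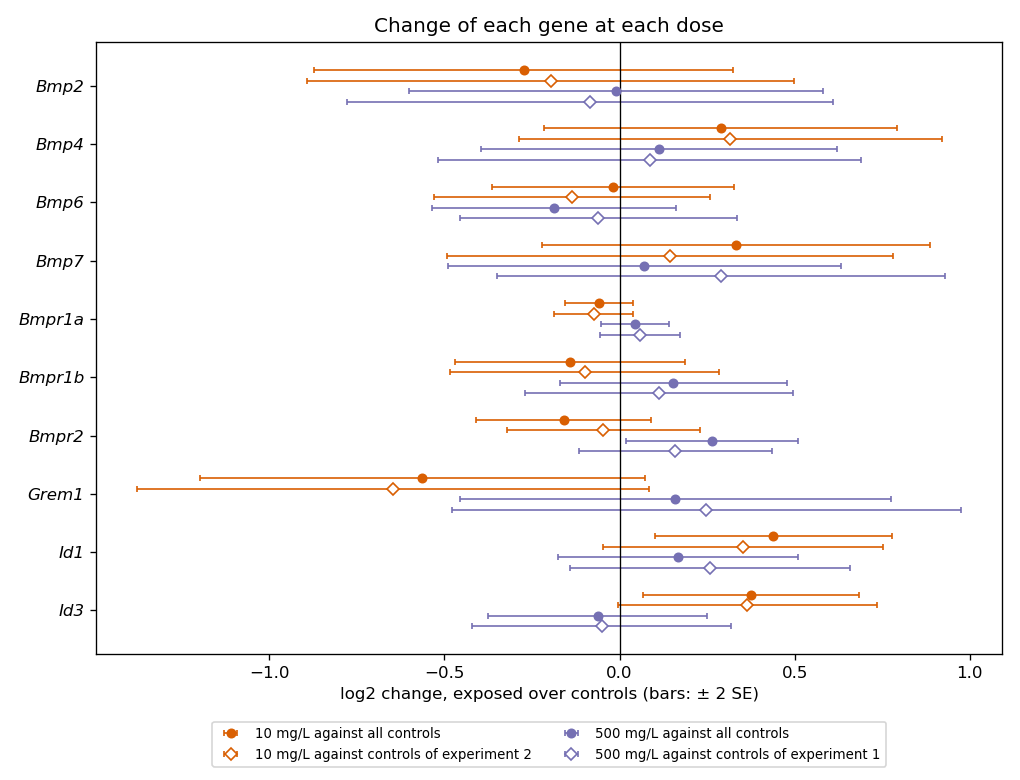
Log2 change of each gene (x axis, with bars of 2 SE) at 10 mg/L and 500 mg/L; filled circles are against all 10 controls and open diamonds against the 5 controls of the same experiment. The intervals of Id1 and Id3 at 10 mg/L and of Bmpr2 at 500 mg/L lie above 0 with all controls, and all intervals include 0 with own controls.

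Some of the 10 genes varied together between mice of the same group. Deviations of log2 CPM from the mean of each group in each experiment were correlated over the 20 mice, for 45 pairs of genes. Of these, 4 pairs had an adjusted permutation p under 0.05, all of them positive. How often pairs of other genes pass in the same way was not examined. The receptors Bmpr1b and Bmpr2 varied together (r = 0.70, rho = 0.70; permutation p = 0.00157, adjusted p = 0.0277), and r was 0.63 without the 2 mice farthest from the median of Bmpr1b. The ligands Bmp4 and Bmp7 had r = 0.68 and rho = 0.74 (permutation p = 0.00162, adjusted p = 0.0277), with r = 0.72 without the 2 farthest mice.

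Bmp6 and Id1 had r = 0.71 and rho = 0.71 (permutation p = 0.00185, adjusted p = 0.0277), with r = 0.75 without the 2 farthest mice. Bmp2 and Bmpr2 had r = 0.66 and rho = 0.65 (permutation p = 0.00275, adjusted p = 0.0309), with r = 0.56 without them. Bmpr2 and Id1 had r = -0.67 and rho = -0.70 (r = -0.59 without the 2 farthest mice), which missed the threshold on r (permutation p = 0.0062, adjusted p = 0.0558) and passed on rho (adjusted p = 0.0387). Id1 and Id3, both targets of the pathway, had r = 0.49 and rho = 0.46 (permutation p = 0.0361, adjusted p = 0.148), with r = 0.59 without the 2 farthest mice. All values of a mouse come from 1 library, so they share its depth and its makeup of cells.

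**Figure D4:**
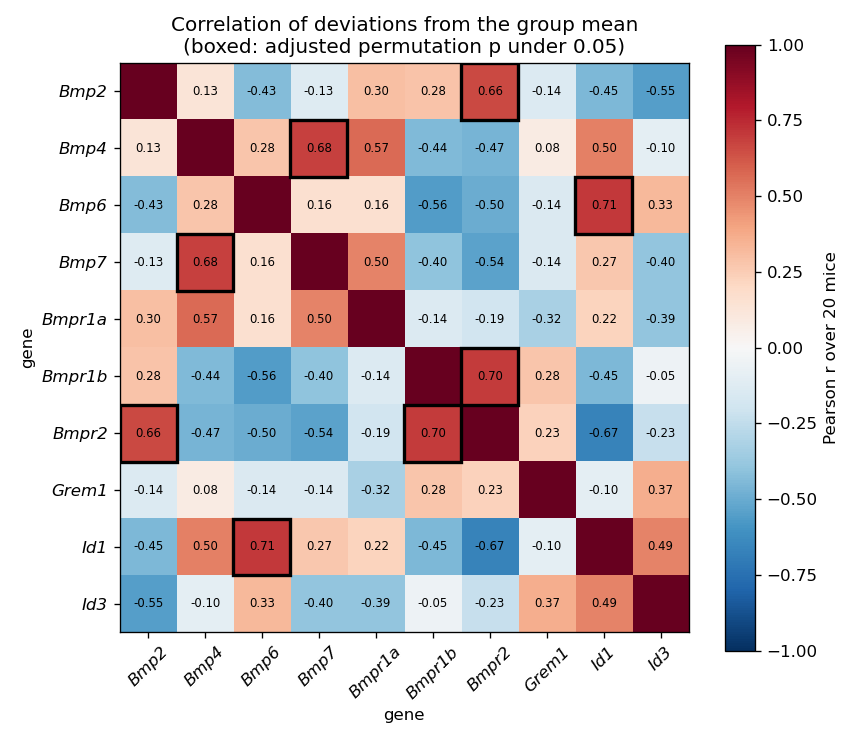
Pearson r over 20 mice (colour and number) between the 10 genes, on log2 deviations from the mean of each group and experiment; boxes mark the 4 pairs with an adjusted permutation p under 0.05. Bmpr2 is positive with Bmpr1b and Bmp2 and, without passing on r, negative with Id1, Bmp7, Bmp6 and Bmp4.

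The same deviations were compared with the mean log2 CPM of 11 marker lists, 110 pairs in all, of which 7 passed on both r and rho. The share of all tested genes that pass with these lists was not examined, so the links below are not known to be particular to these genes. How far the lists vary together was not tested either, so links of a gene with several lists, such as stroma and pericyte markers, may not be separate. Bmp4 followed the 6 stroma markers, such as Col1a1 and Dcn (r = 0.85, rho = 0.89; permutation p = 2e-05, adjusted p = 0.0022), and r was 0.83 without the 2 mice farthest from the median of the score. It also followed the pericyte and smooth muscle markers (r = 0.79, rho = 0.81; permutation p = 0.00015, adjusted p = 0.00825) and the theca markers (r = 0.67, rho = 0.63; permutation p = 0.00117, adjusted p = 0.0257), with r of 0.75 and 0.65 without the 2 farthest mice. Bmp7 followed the stroma markers (r = 0.72, rho = 0.80; permutation p = 0.00031, adjusted p = 0.0114) and the pericyte markers (r = 0.75, rho = 0.76; permutation p = 0.00055, adjusted p = 0.0151), with r of 0.73 and 0.66 without those mice. With the theca markers Bmp7 had r = 0.44 and rho = 0.54, which did not pass (permutation p = 0.0468, adjusted p = 0.234 on r and 0.139 on rho), and r was 0.38 without the 2 farthest mice.

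The type I receptor Bmpr1a followed the stroma markers (r = 0.75, rho = 0.71; permutation p = 0.00294, adjusted p = 0.0462) and the endothelial markers (r = 0.71, rho = 0.72; permutation p = 0.00277, adjusted p = 0.0462), with r of 0.64 and 0.66 without the 2 farthest mice. A further 5 pairs passed on rho and missed on r. Id3 and the granulosa markers had r = 0.66 and rho = 0.78 (permutation p = 0.00887, adjusted p = 0.0813 on r and 0.0181 on rho), and r was 0.64 without the 2 farthest mice. Bmp2, by contrast, was negative with the granulosa markers, with r = -0.64 and rho = -0.66 (permutation p = 0.0105, adjusted p = 0.0833 on r and 0.0484 on rho), and r was -0.60 without the 2 farthest mice. Bmp4 had r = 0.66 and rho = 0.69 with the endothelial markers (permutation p = 0.00513, adjusted p = 0.0568 on r and 0.0458 on rho) and r = 0.71 and rho = 0.73 with the leukocyte markers (permutation p = 0.00369, adjusted p = 0.0507 on r and 0.0458 on rho), with r of 0.72 and 0.62 without the 2 farthest mice. Bmpr1a and the erythroid markers had r = 0.66 and rho = 0.70 (permutation p = 0.00531, adjusted p = 0.0568 on r and 0.0484 on rho), and r was 0.64 without the 2 farthest mice.

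Summed over the list, the stroma markers ran from 974 to 2403 CPM at 10 mg/L, 815 to 2131 CPM at 500 mg/L and 925 to 2363 CPM in all controls, and none of the 6 was at 0 in a whole group. The pericyte and smooth muscle markers ran from 439 to 985 CPM at 10 mg/L, 406 to 1023 CPM at 500 mg/L and 452 to 913 CPM in all controls.

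**Figure D5:**
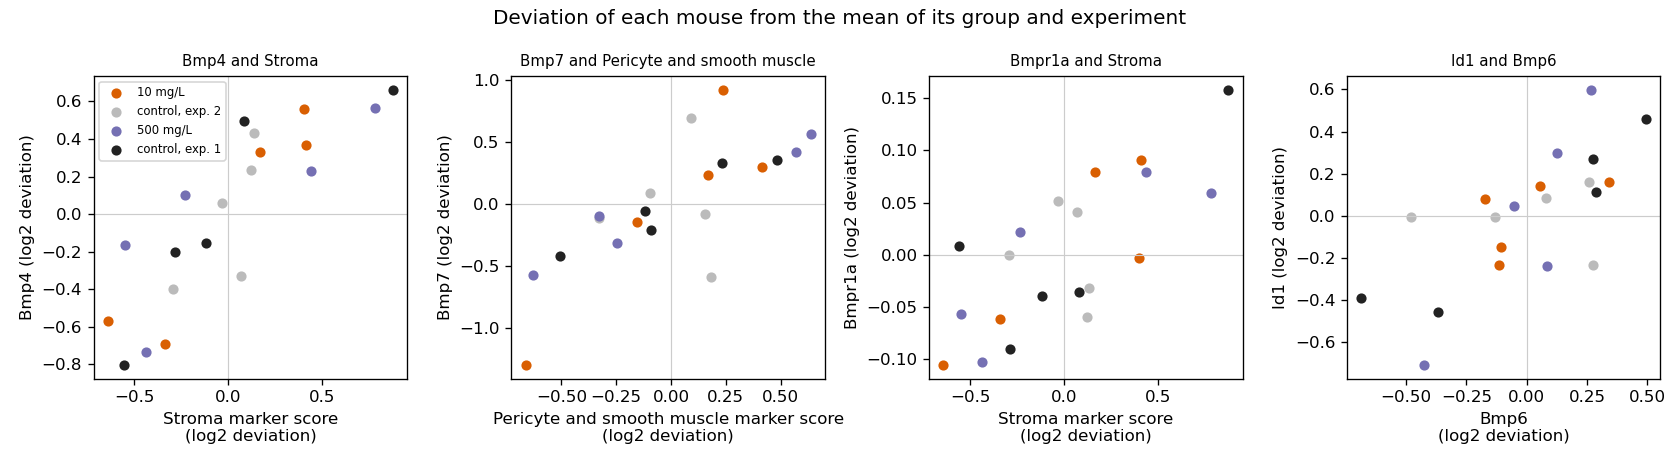
Each point is 1 mouse, as its log2 deviation from the mean of its group and experiment; the y axes show Bmp4, Bmp7, Bmpr1a and Id1, and the x axes the stroma score, the pericyte and smooth muscle score, the stroma score and Bmp6. The pooled points slope upward in each panel, with r = 0.85, 0.75, 0.75 and 0.71.

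The genes whose pattern over the 20 mice was most like that of each member were taken from 14293 genes, by r of the same deviations, as a description with no test. Bmp4 was closest to Efcc1 (r = 0.94), Acaa2 (r = 0.94) and Boc (r = 0.93), the last of them a hedgehog co-receptor. Bmp2 was closest to Cxxc4 (r = 0.94), Sdc4 (r = 0.92), which encodes syndecan 4, and Lancl3 (r = 0.91). Bmpr2 was closest to 1110032F04Rik (r = 0.92) and Nceh1 (r = 0.91). For Bmp7 they were Spata13, the Notch ligand gene Jag1 and Kif26b, with r of 0.85, 0.85 and 0.84.

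For Id3 the closest genes were Alas1, the first enzyme of heme synthesis (r = 0.86), Ddit4, an inhibitor of mTORC1 (r = 0.85), and Lrfn3 (r = 0.84). For Id1 they were Zmynd15 (r = 0.86), Inpp5a (r = 0.82) and the prostaglandin receptor gene Ptger4 (r = 0.82). Bmpr1a was closest to Lamp2, Rundc3a and Dpp6, with r of 0.87 for each, and Bmp6 to Rbms3 (r = 0.86), Apobr (r = 0.81) and St8sia2 (r = 0.81). Grem1 was closest to Tox (r = 0.84), Pabpc1l2b (r = 0.80) and Zfp14 (r = 0.79), and Bmpr1b to Zfp942 (r = 0.83), Dnal1 (r = 0.81) and Csrnp3 (r = 0.78).

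The rest of the pathway was described by 5 further lists, in which edgeR called 0 genes in any of the 7 comparisons, where the background was 0% to 0.157%. Of all tested genes, 49.9% had positive log2 changes at 10 mg/L and 49.9% at 500 mg/L. With own controls the share was 50.1% at 10 mg/L and 50.5% at 500 mg/L, and between the controls of the 2 experiments it was 49.7%. Of 12 other ligands 6 were tested, with 1 positive and 5 negative log2 changes at 10 mg/L and 4 positive and 2 negative at 500 mg/L. The oocyte ligands Gdf9 and Bmp15 were among them, with log2 changes of -0.051 for Gdf9 and -0.049 for Bmp15 at 10 mg/L, and of 0.014 for Gdf9 and -0.057 for Bmp15 at 500 mg/L. The smallest unadjusted p at 10 mg/L belonged to Bmp5 (log2 change -0.18, SE 0.18) and Gdf10 (-0.27, SE 0.40), and at 500 mg/L to Bmp3 (0.22, SE 0.15) and Bmp8a (-0.16, SE 0.29).

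All 9 other receptors and co-receptors were tested. Eng, the co-receptor endoglin of endothelial cells, was at 67.9 to 116 CPM with a median of 105 at 10 mg/L and at 54.6 to 92.8 CPM with a median of 70.7 in all controls. Its log2 change was 0.42 (SE 0.14; edgeR unadjusted p = 0.00615, adjusted p = 0.664), and 0.43 (SE 0.16; edgeR unadjusted p = 0.0175) with own controls. The summed endothelial markers were at 286 to 419 CPM at 10 mg/L and 238 to 377 CPM in all controls, and their part in the Eng value was not tested. The co-receptor Rgmb had a log2 change of -0.16 (SE 0.10) at 10 mg/L and -0.14 (SE 0.10) at 500 mg/L, and the type II receptor Acvr2a one of 0.081 (SE 0.065) at 500 mg/L.

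Of 16 other antagonists 14 were tested, and 11 had negative log2 changes at 10 mg/L and 10 at 500 mg/L, with a median of -0.13 at 10 mg/L and -0.076 at 500 mg/L. With own controls 11 were negative at each dose, with a median of -0.10 at 10 mg/L and -0.11 at 500 mg/L. Between the unexposed controls, experiment 2 minus experiment 1, 9 of the 14 were also negative, with a median of -0.046. Noggin (Nog), which binds BMP2 and BMP4, was at 1.84 to 3.79 CPM with a median of 3.11 at 10 mg/L, against 2.80 to 7.21 CPM with a median of 3.76 in all controls. Its log2 change was -0.50 (SE 0.23; edgeR unadjusted p = 0.0403, adjusted p = 0.784), and Twsg1 had -0.11 (SE 0.072). Bmper, a BMP-binding regulator of endothelial cells, had a log2 change at 500 mg/L of -0.40 (SE 0.17; edgeR unadjusted p = 0.0289, adjusted p = 0.522) against all controls and -0.17 (SE 0.17) against those of experiment 1. Nbl1 had -0.43 (SE 0.21) and -0.20 (SE 0.22) in the same 2 comparisons.

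The 10 signal transducers and their inhibitors had log2 changes with a median of 0.049 at 10 mg/L, where 7 were positive, and of -0.052 at 500 mg/L, where 8 were negative. The smallest unadjusted p belonged to Fkbp1a (-0.11, SE 0.056), whose product holds type I receptors inactive, and Smad1 (0.10, SE 0.062) at 10 mg/L. In the 500 mg/L comparison it belonged to Smad5 (-0.11, SE 0.057) and Fkbp1a (-0.063, SE 0.056).

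Of 8 other target genes 7 were tested, 2 of which, the inhibitory SMAD genes Smad6 and Smad7, are also in the list of transducers. At 10 mg/L 6 of the 7 had positive log2 changes, with a median of 0.16, and with own controls all 7 did, with a median of 0.23. Of the 7, 5 were negative at 500 mg/L, with a median of -0.12, and 5 with own controls, with a median of -0.20. Between the unexposed controls, experiment 2 minus experiment 1, 5 of the 7 were also negative, with a median of -0.16. Smad7 had a log2 change of 0.21 (SE 0.14) and Msx1 one of 0.32 (SE 0.25) at 10 mg/L. Id4 had one of 0.31 (SE 0.21) at 500 mg/L.

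Atoh8, a helix-loop-helix factor gene known as a BMP target, was at 12.9 to 14.5 CPM with a median of 13.8 at 500 mg/L, against 12.9 to 33.7 CPM with a median of 19.3 in all controls. The difference was -0.59 on the log2 scale (SE 0.21; unadjusted p = 0.00943 by edgeR, adjusted p = 0.417), and -0.61 (SE 0.24; edgeR unadjusted p = 0.0194, adjusted p = 0.954) with the controls of experiment 1. The 5 mice at 500 mg/L lay at the low end of the controls and within a narrow range.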

How the data were processed

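Poly(A) RNA of antral follicles from 20 mice was sequenced for 101 cycles on 1 lane with a stranded kit, per the labels' protocols. The submitters' processing notes name build GRCm39, R 4.1.2 with limma and edgeR, Salmon 1.2.0, and FastQC 0.11.8. The deposited table holds expected counts per gene, not normalised, which were rounded to whole numbers here, so close copies of a gene share reads by estimation. Per the file headers, a second deposited table by the authors gives average log2 expression, p-values, an F score over the 3 groups and signed fold changes as a score. It was used only to set its values beside those computed here.

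Here edgeR 4.0.16 in R 4.3.3 was used (filterByExpr with a minimum count of 10, TMM, quasi-likelihood test, two-sided, Benjamini-Hochberg adjustment over 17810 genes). The main model had 1 mean per group, with the controls of both experiments combined as the submitters did, and a second had 1 mean per group and experiment. The 10 genes, the lists and the alternatives were chosen with earlier results of these data known. Named pathway genes are the 2 of each list with the smallest p at each dose, and the 3 genes most like each member had a mean of at least 1 CPM; 1 of those of Bmpr2 is not reported here. Where others were named for their place in the text, as Gdf9 and Bmp15, this was after their values were seen. Correlations used log2 CPM with a prior count of 2 and 100000 permutations of mice within group and experiment, two-sided. Transcript lengths came from GENCODE vM21. The tests were also run on simulated data, for edgeR with the same spread for every gene and no variation shared between genes. This checks the code and not how often the tests err in these data.

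Library totals were 39.9 M to 67.5 M expected counts. With 1 library per mouse, variation between mice and variation between library preparations cannot be told apart, and what limits precision was not tested. Alternatives were upper-quartile factors, no filter or a filter of 1 CPM in at least 5 mice, limma 3.58.1 (voom, and trend with 3 surrogate variables), edgeR with the surrogate variables, DESeq2 1.42.0, own controls, only the groups compared, the replicate number as a block, and each mouse left out. Those with surrogate variables, and all for 500 mg/L against 10 mg/L, were chosen after seeing the data.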

Additional observations from a re-analysis of the deposited data

Results flagged for a closer look

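Bmp7 in control replicate 3 was far from the other 9 controls. It had 18.3 CPM there, against 6.49 to 12.1 CPM in the others. This was the only such value among 30 sets of mice examined (10 genes in 3 groups). Chance gives about 1 in 20 sets if values are normally distributed, which was not tested for CPM. The rule was applied to CPM and not to log2 values. Without that mouse the log2 change of Bmp7 at 500 mg/L against all controls was 0.20, against 0.07 with it.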

How the results depend on the processing

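Under every alternative run, 0 of the 10 genes were called in the comparisons of the 3 groups and of the controls. Of 390 changes of single genes under settings other than leaving out a mouse, 380 kept their direction and their side of the threshold and 10 reversed. Bmp2 at 500 mg/L was 0.0021 with upper-quartile factors, 0.048 with limma-voom and 0.098 with the replicate block. Bmp6 at 10 mg/L was 0.030 and Bmp4 between the control sets 0.015 with limma-voom. Bmp7 at 500 mg/L was -0.19 with the replicate block. At 500 mg/L against 10 mg/L, Bmp4 and Bmp7 were 0.096 and 0.060 with surrogate variables in edgeR and 0.10 and 0.094 in limma-trend.

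The number of all genes called depended on the test. At 10 mg/L against all controls 1 was called, 8 by DESeq2, and 0 with upper-quartile factors, no filter, limma-voom, own controls, the replicate block, experiment 2 alone with the block, or surrogate variables in edgeR or limma-trend. At 500 mg/L 2 were called, 86 by DESeq2, 17 with the replicate block, and 0 with limma-voom, own controls or surrogate variables in edgeR or limma-trend. Between the doses 2 were called, 123 by DESeq2, 8 with the block, 10 with surrogate variables in edgeR, 11 in limma-trend, and 0 with upper-quartile factors, no filter, limma-voom or only the groups compared. Between the control sets 28 were called, 192 by DESeq2, 11 with no filter and 48 with at least 1 CPM in at least 5 mice. The cause was not tested. Without the subtraction of group means, 9 pairs of members were called and not 4.

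Leaving out 1 mouse at a time gave 0 to 1 calls at 10 mg/L, 0 to 3 at 500 mg/L, 0 to 4 between the doses and 3 to 50 between the control sets. Among single genes, ranges that crossed 0 were as follows. At 500 mg/L against all controls the ranges were -0.20 to 0.00067 for Id3, -0.087 to 0.12 for Bmp2, -0.087 to 0.20 for Bmp7, -0.049 to 0.26 for Bmp4 and -0.0058 to 0.31 for Id1. At 10 mg/L Bmp6 ran from -0.11 to 0.034, and between the doses Bmp7 ran from -0.48 to 0.0073. Between the control sets the ranges were -0.41 to 0.088 for Bmp2, -0.055 to 0.12 for Id3, -0.21 to 0.13 for Bmp4 and -0.20 to 0.086 for Bmpr1b. Other ranges against all controls kept their sign but were wide: at 10 mg/L -0.58 to -0.079 for Bmp2, 0.060 to 0.55 for Bmp7, 0.14 to 0.43 for Bmp4, -0.19 to -0.054 for Bmpr1b, -0.23 to -0.091 for Bmpr2 and -0.084 to -0.027 for Bmpr1a, and at 500 mg/L 0.015 to 0.34 for Grem1, 0.038 to 0.23 for Bmpr1b, -0.26 to -0.096 for Bmp6 and 0.019 to 0.069 for Bmpr1a.

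Over the 5 pairs of same-numbered mice at 10 mg/L and in the controls, the correlation of deviations ran from -0.13 to 0.088. For 500 mg/L and the controls it ran from -0.038 to 0.10, and for 10 mg/L and 500 mg/L from -0.12 to 0.23. The replicate block is given only here. For Grem1, Bmp2, Bmp4 and Bmp7 at 10 mg/L, 2 SE came to more than 0.5 on the log2 scale with 5 mice per dose, and a change of 2 SE was not enough for an adjusted p under 0.05 over all genes.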
